A study of Drosophila melanogaster with 6 samples.

Results

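The Hox genes Scr, Antp, Ubx, abd-A and Abd-B, their cofactors exd and hth, and the zinc finger genes tsh and tio were followed in flight muscle precursors of Drosophila melanogaster. These 9 genes of 17494 in the count table were chosen by name as segment identity genes. They were selected with the difference between the genotypes already known from the same libraries, so their differences are given as descriptions, without a test. Of the 9 genes, 7 had enough counts to be fitted and Ubx and abd-A did not.

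RNA was sequenced from wing disc myoblasts of animals raised at 25 °C and taken at 0 h after puparium formation (APF). The M1BP RNAi libraries (n = 3) came from animals with Mef2-GAL4, UAS-GFP::Gma and UAS-M1BP RNAi #1, and the WT libraries (n = 3) from animals with Mef2-GAL4 and UAS-GFP::Gma without the RNAi construct. Mef2-GAL4 is active in the muscle lineage, so the construct was expressed in that lineage, and cells of pooled discs were sorted on viability, size and GFP. M1BP (Motif 1 binding protein) binds the Motif 1 element of core promoters. RNAi #1 is a single line of the KK collection of the VDRC, and the insertion site of its construct is not given in the sources used here. As background, lines of that collection can carry an insertion close to tio. Since each M1BP RNAi library carries the construct and no WT library does, an effect of its position on nearby genes and an effect of M1BP knockdown cannot be told apart.

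Hox genes encode homeodomain proteins that give each body segment its identity. Exd and Hth are homeodomain proteins of the TALE class that bind DNA together with Hox proteins, and in the fly thorax they are also known to specify the fibrillar type of flight muscle. Tsh is a zinc finger protein of the trunk that acts beside the Hox proteins, and tio encodes its paralogue.

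Between 43086545 and 51855156 reads were counted in a library, 12284 to 13038 genes had a count, and 10306 genes were tested. The detection floor was set at 3 counts, which made 0.0579 to 0.0696 CPM (counts scaled to the library total). M1BP (FBgn0037621, on the minus strand of 3R in dm6, 8729790 to 8731698) had 1386, 1703 and 1671 counts in M1BP RNAi, against 5821, 5288 and 5589 in WT. It fell by 1.71 on the log2 scale, with an SE of 0.10 and an adjusted p of 1.45e-05 (quasi-likelihood test of edgeR, adjusted after Benjamini and Hochberg). Of 8 tested myoblast markers, 0 differed at an adjusted p of 0.05 in edgeR or at an unadjusted p under 0.05, and their summed level was 11056 to 11763 CPM in M1BP RNAi and 11001 to 12550 CPM in WT. The markers listed for the disc epithelium, carried mostly by shg, ed, rn and ap, summed to 1997 to 2150 CPM in M1BP RNAi and 1968 to 2320 CPM in WT.

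The levels of the 9 genes fell into a high and a low set in both genotypes. Levels of different genes are compared as RPKM, the counts per kilobase of exon, scaled to the TMM library size. The high set held tsh, exd, hth and Antp. The low set held tio, Scr, Abd-B, abd-A and Ubx. From tsh downwards the M1BP RNAi means were 89.8 ± 5.70 RPKM for tsh, 78.7 ± 5.06 for exd, 76.0 ± 3.42 for hth and 30.1 ± 1.98 for Antp (SD, n = 3). The WT means of the same genes were 100.5 ± 12.8 RPKM for tsh, 75.4 ± 5.41 for exd, 73.6 ± 6.99 for hth and 32.9 ± 4.39 for Antp (SD, n = 3). In either genotype the libraries of exd and hth overlapped in level, whereas those of tsh lay above exd and those of hth above Antp without overlap.

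In the low set, tio stood at 0.505 ± 0.086 RPKM in M1BP RNAi and 1.66 ± 0.33 RPKM in WT (SD, n = 3). Scr stood at 0.372 ± 0.280 RPKM in M1BP RNAi and 0.737 ± 0.662 RPKM in WT, and its libraries overlapped those of tio in both genotypes. Abd-B had 0.0463 ± 0.0361 RPKM in M1BP RNAi and 0.0217 ± 0.0087 RPKM in WT. It overlapped the neighbouring abd-A in both genotypes, and it overlapped Scr in M1BP RNAi but not in WT. Ubx was last in both genotypes, without a count in any M1BP RNAi library and overlapping abd-A in WT.

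**Figure D1:**
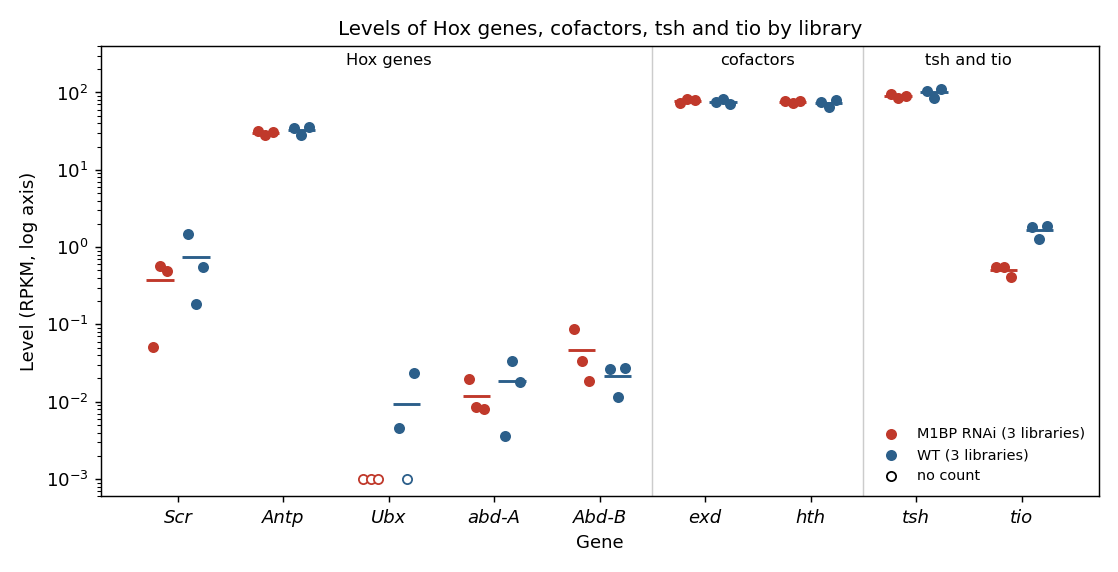
Level of each of the 9 genes in each library, in RPKM on a log axis, with M1BP RNAi left of WT and a bar at the mean of 3 libraries. Open points at the foot are libraries without a count. Antp, exd, hth and tsh lie at 27.9 RPKM or above in every library, and tio is the gene of the low set with enough counts whose genotypes do not overlap.

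Among the Hox genes, Antp, which specifies the thorax and in particular its second segment, was the predominant transcript. Antp (FBgn0260642, minus strand of 3R in dm6, 6896253 to 6999228) had 11138, 9053 and 10482 counts in M1BP RNAi, against 13304, 9124 and 13618 in WT. The lowest WT library lay among the M1BP RNAi libraries, so the genotypes overlapped. The log2 fold change, M1BP RNAi over WT, was -0.13 (SE 0.095). Leaving out WT replicate 2 gave -0.24 and leaving out WT replicate 3 gave -0.06, the ends of the range. Per length, Antp made up 99.5%, 97.8% and 98.3% of the summed level of the 5 Hox genes in M1BP RNAi and 95.8%, 99.2% and 98.3% in WT. The share lay at 95.8% or above in each library and overlapped between the genotypes. Antp spans 102976 bases, of which 7508 are exonic, and 12 transcripts are annotated. A noncoding gene within that span, lncRNA:CR43252, shares no exonic base with it.

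Scr, the Hox gene of the labial and first thoracic segments, varied widely between replicates. Scr (FBgn0003339, minus strand of 3R in dm6, 6823120 to 6849981) had 11, 113 and 103 counts in M1BP RNAi, against 345, 37 and 127 in WT. The highest and lowest library of a genotype differed 11.1-fold in M1BP RNAi and 7.92-fold in WT after normalisation, and the genotypes overlapped. The fitted log2 fold change was -1.0 (SE 0.79). WT replicate 1 decided this value, which was -0.0047 without it and -1.46 without WT replicate 2. Antp, which lies 46.3 kb from Scr in the Antennapedia complex, did not vary in this way.

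Ubx and abd-A of the bithorax complex were at or near the detection floor. Ubx, which specifies the third thoracic segment and the haltere, had 0, 0 and 0 counts in M1BP RNAi, against 1, 0 and 5 in WT. A count of 0 allows a level of up to 0.0150, 0.0162 and 0.0153 RPKM in the M1BP RNAi libraries. Ubx (FBgn0003944, minus strand of 3R in dm6, 16656623 to 16734426) is the marker that separates haltere from wing disc cells, and its counts were near 0 in each of the 6 libraries. The abdominal gene abd-A (FBgn0000014, minus strand of 3R in dm6, 16807214 to 16830049) had 5, 2 and 2 counts in M1BP RNAi, against 1, 8 and 5 in WT. For neither gene was a difference detectable at this depth.

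Abd-B (FBgn0000015, minus strand of 3R in dm6, 16927212 to 16972236), the Hox gene of the posterior abdomen, passed the filter with few counts. It had 48, 17 and 10 counts in M1BP RNAi, against 16, 6 and 16 in WT. The genotypes overlapped, and M1BP RNAi replicate 1 stood apart as the highest library. The fitted value of 1.08 on the log2 scale (SE 0.62) rested on that library, since it was 0.24 without it.

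The cofactors were expressed at high and similar levels in the genotypes. exd (FBgn0000611, plus strand of X in dm6, 15992468 to 15996509) had 11255, 11771 and 12189 counts in M1BP RNAi, against 12578, 11692 and 11698 in WT. The libraries overlapped, and the log2 fold change was 0.06 (SE 0.072). hth (FBgn0001235, minus strand of 3R in dm6, 10507561 to 10639568) had 43191, 36922 and 42181 counts in M1BP RNAi, against 45864, 33909 and 47059 in WT. These also overlapped, with a log2 fold change of 0.05 (SE 0.075), and the sign turned to -0.03 without WT replicate 2. Hth is needed to carry Exd into the nucleus, so the balance of the pair was described as the share of exd in their summed level per length. It was 48.3%, 53.3% and 50.9% in M1BP RNAi and 49.6%, 55.3% and 47.1% in WT. The ranges overlapped and the means, 50.8% in M1BP RNAi and 50.7% in WT, differed by less than the spread between replicates. Exons of hth share 207 bases with asRNA:CR44018, which had 0 counts in the M1BP RNAi libraries and 1, 0 and 0 in WT.

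tsh, the member of the paralogue pair with the higher level, differed little. tsh (FBgn0003866, plus strand of 2L in dm6, 21828593 to 21837011) had 20973, 17118 and 19679 counts in M1BP RNAi, against 25486, 17728 and 26160 in WT. WT replicate 2 lay within the M1BP RNAi range and the other WT libraries lay above it. On the log2 scale tsh differed by -0.16 (SE 0.092), by -0.27 without WT replicate 2 and by -0.10 without WT replicate 3, which are the ends of the range.

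Of the 7 fitted genes, tio had the lowest level in M1BP RNAi relative to WT. tio (FBgn0028979, plus strand of 2L in dm6, 22019208 to 22025734) had 149, 136 and 106 counts in M1BP RNAi, against 535, 318 and 536 in WT. Each M1BP RNAi library lay below each WT library. After normalisation tio had 135 ± 22.9 counts in M1BP RNAi and 443 ± 88.3 in WT (SD, n = 3), which put M1BP RNAi at 30.4% of WT. On the log2 scale tio differed by -1.72 (SE 0.20), by -1.88 without WT replicate 2 and by -1.58 without M1BP RNAi replicate 3, which are the ends of the range. The lowest WT library was WT replicate 2, which was also the lowest WT library for Antp, hth and tsh. The RNA was extracted from bulk cells, so fewer cells that express tio and less tio RNA per cell cannot be told apart.

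In edgeR, 0 of the 7 fitted genes passed the threshold of the study, against 0.475% of all tested genes. That threshold asks for both 1.5-fold and an adjusted p of 0.001 or less, and the study applied it to DESeq2 values. The DESeq2 Wald test, edgeR without the filter on low counts and edgeR without WT replicate 2 each placed 1 gene, tio, past that threshold. With 0.05 as the limit of the adjusted p and no fold condition there was 1 gene, tio, which was lower in M1BP RNAi, against 4.09% of all tested genes in either direction, 2.17% lower and 1.92% higher. Without WT replicate 2 there were 2 such genes, tsh and tio. The genotypes did not overlap for 1 of the 7 genes, against 26.1% of all tested genes. These counts restate the contrast with which the genes were chosen. The median log2 fold change was -0.13 over the 7 genes and 0.0070 over all tested genes.

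**Figure D2:**
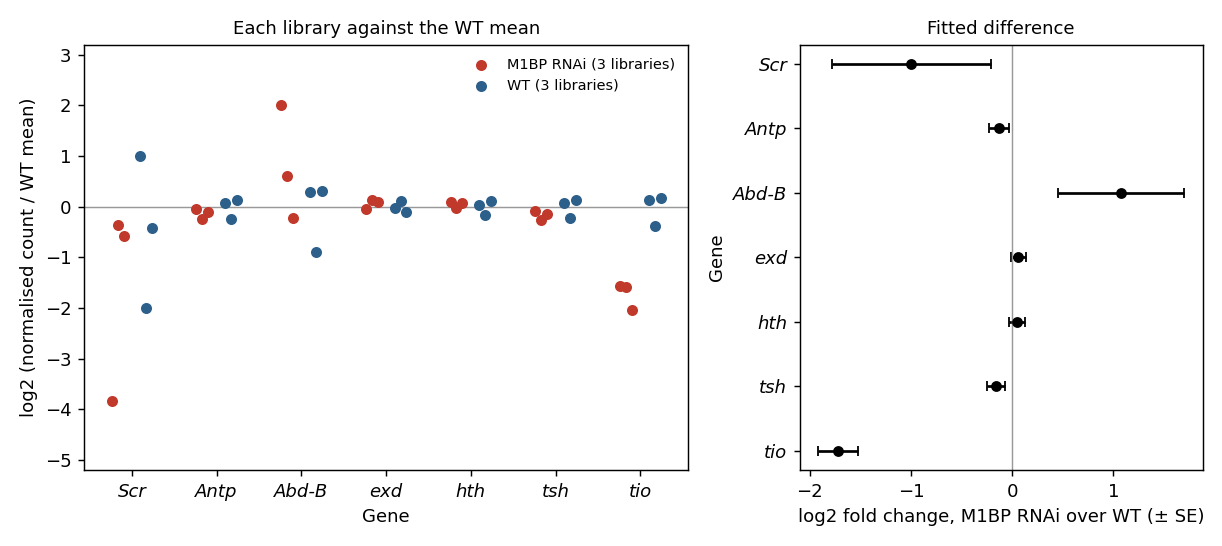
Left, normalised count of each library over the mean of WT, on the log2 scale, for the 7 genes with enough counts, with M1BP RNAi left of WT. Right, fitted log2 fold change with its SE, M1BP RNAi over WT, from -1.72 for tio to 1.08 for Abd-B. Scr and Abd-B have wide errors, and tio alone of the 7 has all M1BP RNAi libraries below all WT libraries.

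The balance between the paralogues was then expressed as the share of tio in the summed level of tio and tsh, per length. It was 0.586%, 0.654% and 0.445% in M1BP RNAi, against 1.71%, 1.47% and 1.67% in WT. The ranges did not overlap, with means of 0.561% ± 0.107 in M1BP RNAi and 1.62% ± 0.132 in WT (SD, n = 3). tsh was thus the predominant transcript of the pair in both genotypes.

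The annotation at tio was examined because a second gene begins at the same base. lncRNA:CR33987 (FBgn0053987, plus strand) shares 883 exonic bases with tio, which are 15.5% of the exonic bases of tio and 84.3% of those of the noncoding gene. It had 19, 34 and 20 counts in M1BP RNAi, against 73, 57 and 70 in WT, without overlap. Its log2 fold change was -1.34 (SE 0.36), and the difference did not pass an adjusted p of 0.05 in edgeR (0.0694) although it did with the DESeq2 Wald test (0.0235). With its counts subtracted from those of tio, 130, 102 and 86 counts remained in M1BP RNAi, against 462, 261 and 466 in WT. That remainder had a log2 fold change of -1.79 (SE 0.22), and the share of tio in the pair was 0.455% in M1BP RNAi and 1.38% in WT. The subtraction was chosen after the counts were seen. It took off all counts of the noncoding gene, though 84.3% of its exonic bases are shared. It also presumes that shared reads count for both genes. The share still divides by the full exon length of tio, so it is low by construction.

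tio and tsh lie 182 kb apart on 2L in the same orientation, and the genes around them were considered because position was not used in choosing the 9 genes. Within 100 kb of either gene lie 43 other genes, of which 19 had more than 3 counts in a library and 10 were tested, lncRNA:CR33987 included. Of these, 3 were higher in M1BP RNAi and 0 were lower at an adjusted p of 0.05 in edgeR, where 1.92% and 2.17% of all tested genes were so called. CG2528 and CG1428 among the 3 had 0 counts in WT. They passed the filter on low counts through M1BP RNAi alone and could only be called higher. The count of 3 is therefore not read as an excess over these shares. With the DESeq2 Wald test 6 genes passed. Within 50 kb, 1 of the 4 tested genes passed.

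CG2528 (FBgn0032969, 2L, 21974749 to 21992933, minus strand), 26.3 kb before the start of tio, had 41, 29 and 36 counts in M1BP RNAi, against 0, 0 and 0 in WT. It was at least 12.5-fold higher, with 3 counts per library as the floor (adjusted p 0.00216, edgeR). CG1428 (FBgn0032967, 2L, 21906289 to 21908319, plus strand), 69.3 kb beyond tsh and 111 kb before tio, had 30, 14 and 32 counts in M1BP RNAi, against 0, 0 and 0 in WT. It was at least 8.89-fold higher (adjusted p 0.00688, edgeR). Both genes were detected in every M1BP RNAi library and in no WT library. Both still passed whichever single library was left out. Since they entered the test through M1BP RNAi alone, these adjusted p-values are not read as support.

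The third gene, nolo (FBgn0051619, 2L, 21684106 to 21729051, plus strand), lies 99.5 kb from tsh on the side away from tio. It had 927, 890 and 851 counts in M1BP RNAi, against 665, 579 and 811 in WT. It rose by 0.48 on the log2 scale, with an SE of 0.11 and an edgeR adjusted p of 0.0391. This call was lost without any 1 of the M1BP RNAi replicates or WT replicates 1 and 2, with an adjusted p of up to 0.165 without M1BP RNAi replicate 2.

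The nearest tested genes on the outer sides did not pass. CG31612, 33.1 kb before tsh, differed by -0.26 on the log2 scale with an SE of 0.13 and an edgeR adjusted p of 0.311. CG3651, 95.6 kb beyond tio, differed by -0.22 with an SE of 0.069 and an edgeR adjusted p of 0.116, and 1833 of its exonic bases are shared with CycK. It passed with the DESeq2 Wald test (0.0452) and in edgeR without WT replicate 2 (adjusted p 0.0475). The nearest tested gene on the inner side of tsh, lncRNA:CR44917 at 18.1 kb, had 23, 14 and 9 counts in M1BP RNAi, against 13, 5 and 2 in WT, a difference of 1.29 on the log2 scale with an SE of 0.67 and an edgeR adjusted p of 0.319.

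The whole interval between tsh and tio was then read gene by gene, after the counts of CG2528 and CG1428 had been seen. Of its 20 genes, 6 had counts in every M1BP RNAi library and none in WT, which is 30% of the interval, and 0 had the opposite pattern. Among all 17494 genes the 2 patterns were found for 44 (0.252%) and 50 (0.286%), but these genes were not matched in level to the interval. Apart from CG2528 and CG1428 the 6 genes had few counts. CG11634 had 9, 6 and 5 counts in M1BP RNAi, lncRNA:CR44804 had 2, 5 and 4, lncRNA:CR44803 had 3, 2 and 1 and CG1421 had 2, 1 and 3, each against 0 in the WT libraries. lncRNA:CR44803 and CG1421 were thus at or under the floor of 3 counts in every library, and lncRNA:CR44804 was under it in M1BP RNAi replicate 1. Together the 6 genes held 87, 57 and 81 counts in M1BP RNAi and 0 in WT. Counts in the interval summed to 148, 91 and 134 in M1BP RNAi, against 38, 36 and 22 in WT. CG31693, which lies 1.87 kb before tio and closest to it, had 10, 3 and 19 counts in M1BP RNAi, against 2, 10 and 1 in WT, and its genotypes overlapped. tio itself was higher in no M1BP RNAi library. The part of the construct's position in these counts was not tested.

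**Figure D3:**
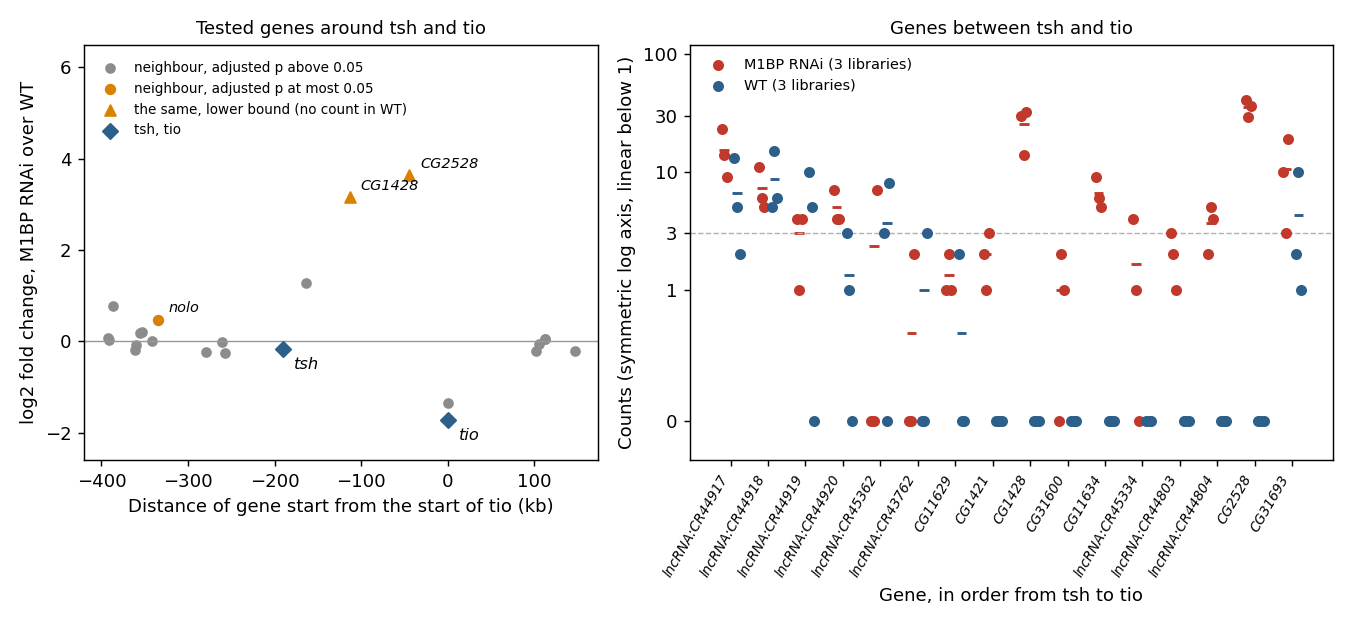
Left, log2 fold change, M1BP RNAi over WT, for tested genes within 200 kb of tsh or tio, by distance of the gene's start from that of tio in kb. Triangles are lower bounds for CG2528 (at least 12.5-fold) and CG1428 (at least 8.89-fold), which had no count in WT. Right, counts in each library for those genes between tsh and tio with at least 3 counts over the 6 libraries, on a symmetric log axis, with a bar at each mean and a dashed line at 3 counts, M1BP RNAi left of WT.

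Around the other 7 genes, 162 genes lie within 100 kb and 81 were tested. Against 4.09% of all tested genes in either direction, 1 of the 81 passed an adjusted p of 0.05 in edgeR. This was nonA-l (FBgn0015520, 3R, 16640205 to 16643112, plus strand), 13.5 kb from Ubx, with 480, 612 and 482 counts in M1BP RNAi, against 1488, 1677 and 1669 in WT. nonA-l fell by 1.53 on the log2 scale, with an SE of 0.14 and an edgeR adjusted p of 0.000406, while Ubx beside it was near 0 in both genotypes. Without WT replicate 2 there were 3 genes, with the DESeq2 Wald test there were 4, and within 200 kb there were 9 of 174. Of these 9, 7 lay around hth, where 41 genes were tested, and all 7 were higher in M1BP RNAi, as were 1.92% of all tested genes. They lie 128 to 167 kb from hth. CG45076, CG45078 and fau among them share exons, so they are not taken as separate measurements. CG45078 had 1051, 887 and 1038 counts in M1BP RNAi, against 519, 573 and 495 in WT, and mRpL37 had 3863, 3598 and 3646 in M1BP RNAi, against 2243, 2279 and 2317 in WT. Neither gene overlapped between the genotypes, while hth itself did. The genes around hth were named after their values were seen. Within 200 kb of tsh or tio there were 3 of 21.

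Other genes of the Hox complexes were followed as a list. Of 11 with a row in the table, 6 were tested and 0 differed at an adjusted p of 0.05 in edgeR, while 1 had an unadjusted p under 0.05, as had 20.2% of all tested genes, and the DESeq2 Wald test called 1. Their median log2 fold change was -0.19, against 0.0070 over all tested genes. The gene at the unadjusted level was pb, the Hox gene of the mouthparts (named after its values were seen), with 44, 39 and 40 counts in M1BP RNAi, against 83, 74 and 97 in WT. Its genotypes did not overlap, and differed by -0.95 on the log2 scale with an SE of 0.27 and an edgeR adjusted p of 0.0822. The noncoding RNAs of the bithorax complex, lncRNA:iab4, lncRNA:iab8 and lncRNA:bxd, had 0 counts in each library, as did zen2.

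Polycomb group proteins keep Hox genes silent outside their domains. Of 21 tested genes of the group, 3 fell at an adjusted p of 0.05 in edgeR and 0 rose, where 2.17% and 1.92% of all tested genes did so. An unadjusted p under 0.05 was found for 4 of the 21, a share close to the 20.2% of all tested genes. The median log2 fold change was -0.08, against 0.0070 over all tested genes. Asx, a subunit of the complex that removes ubiquitin from histone H2A (FBgn0261823, 2R, 14503958 to 14512493, plus strand), had 12645, 9853 and 11478 counts in M1BP RNAi, against 22290, 14021 and 22269 in WT. Its genotypes did not overlap, and it fell by 0.68 on the log2 scale with an SE of 0.12 and an adjusted p of 0.0113. Scm, which links the Polycomb complexes, fell by 0.31 with an SE of 0.054 and an adjusted p of 0.0124, and 315 of its exonic bases are shared with SpdS. ph-d, a subunit of Polycomb repressive complex 1, also fell by 0.31, with an SE of 0.073 and an adjusted p of 0.0431. Each of the 3 calls was lost in at least 1 fit with a library left out. No gene of the list passed without M1BP RNAi replicate 2 or without WT replicate 1, and 1 passed without M1BP RNAi replicate 3. The adjusted p without M1BP RNAi replicate 2 was 0.0658 for Asx, 0.0819 for Scm and 0.19 for ph-d.

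Trithorax group proteins keep Hox genes active. Of 17 tested genes, 0 differed at an adjusted p of 0.05 in edgeR, 4 had an unadjusted p under 0.05, a share close to the 20.2% of all tested genes, and the DESeq2 Wald test called 1. There was 1 call without M1BP RNAi replicate 3 and there were 2 without WT replicate 2. Their median log2 fold change was -0.09.

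Genes that Hox proteins are known to control in the thorax were followed as the next list. Of 17 tested, 0 differed at an adjusted p of 0.05 in edgeR, 4 had an unadjusted p under 0.05, again close to the 20.2% of all tested genes, and the DESeq2 Wald test called 3. Without M1BP RNAi replicate 2 or WT replicate 2 there was 1 call. The median log2 fold change was 0.02. salm, a zinc finger gene required for fibrillar flight muscle (named after its values were seen), had 737, 549 and 595 counts in M1BP RNAi, against 485, 356 and 531 in WT. The genotypes did not overlap after normalisation, and the difference was 0.55 on the log2 scale with an SE of 0.13 and an edgeR adjusted p of 0.0508. vg, which is expressed in flight muscle myoblasts, and ap overlapped between the genotypes, with log2 fold changes of 0.02 (SE 0.063) and -0.03 (SE 0.055).

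The network in which tsh and tio act in the eye and the trunk was tested for 18 genes. At an adjusted p of 0.05 in edgeR 2 fell and 0 rose, where 2.17% and 1.92% of all tested genes did so. An unadjusted p under 0.05 was found for 3 of the 18, against 20.2% of all tested genes. The median log2 fold change was 0.0063. eya, a transcription cofactor and phosphatase of the retinal network (FBgn0000320, 2L, 6527447 to 6546976, minus strand), had 385, 335 and 290 counts in M1BP RNAi, against 920, 587 and 1184 in WT. Each M1BP RNAi library lay below each WT library, and eya fell by 1.30 on the log2 scale with an SE of 0.19 and an adjusted p of 0.00497. ush, the FOG-type zinc finger partner of the GATA factor Pnr (FBgn0003963, 2L, 476220 to 540560, plus strand), had 620, 554 and 514 counts in M1BP RNAi, against 1507, 1239 and 1694 in WT. The genotypes did not overlap, and ush fell by 1.30 on the log2 scale with an SE of 0.10 and an adjusted p of 0.000123. Both were called in each alternative fit, and 524 exonic bases of ush are shared with lncRNA:CR46258. so, the DNA-binding partner of Eya, overlapped between the genotypes with a log2 fold change of -0.23 (SE 0.17). pnr, the partner of ush (named after its values were seen), had 2, 9 and 1 counts in M1BP RNAi, against 19, 17 and 11 in WT. Its genotypes did not overlap, and differed by -1.84 on the log2 scale with an SE of 0.73 and an edgeR adjusted p of 0.199.

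**Figure D4:**
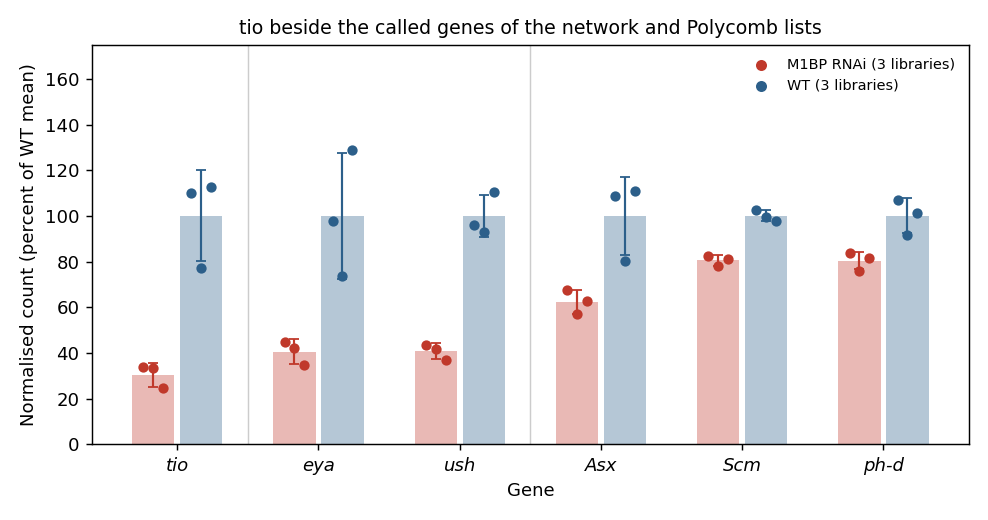
Normalised counts as a percentage of the WT mean for tio, for eya and ush of the network list and for Asx, Scm and ph-d of the Polycomb list, with M1BP RNAi left of WT. Bars are means, whiskers are the SD and points are the 3 libraries of each genotype. The M1BP RNAi mean of tio stands at 30.4% of WT, and no gene shown has overlapping genotypes.

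Summed levels of markers of other cell types are given beside tio, eya and ush, and for 3 lists the sums did not overlap between the genotypes although 1 marker in all passed the test. Of 8 haemocyte markers 3 were tested and 0 passed. All 3 were lower in M1BP RNAi, with a median log2 fold change of -0.95. The 8 markers summed to 19.2 to 24 CPM in M1BP RNAi against 25.6 to 37.5 CPM in WT, with eater at 0 in every library and PPO1 at or under the floor. The 5 tracheal markers, of which 0 passed, summed to 14 to 15.0 CPM in M1BP RNAi and 15.6 to 26.7 CPM in WT. Of the 5, 4 were lower and 1 was higher in M1BP RNAi, with a median log2 fold change of -0.63. Of 8 markers of differentiated muscle 6 were tested. All 6 were higher in M1BP RNAi, with a median log2 fold change of 0.87. In edgeR 4 of the 6 had an unadjusted p under 0.05, against 20.2% of all tested genes, and 1 passed an adjusted p of 0.05. This was Act57B, which rose by 0.39 on the log2 scale with an SE of 0.076 and an edgeR adjusted p of 0.0203. The call was lost without any 1 library other than WT replicate 2, with an adjusted p of up to 0.113. The exons of Act57B hold a snoRNA gene. The list summed to 832 to 962 CPM in M1BP RNAi and 689 to 763 CPM in WT. Most of the haemocyte sum was Pxn, with an edgeR adjusted p of 0.13. The part of these 3 sums in the values of tio, eya and ush was not tested.

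The 12 tested markers of the disc epithelium held 0 calls, with 10 of 12 lower in M1BP RNAi and a median log2 fold change of -0.23. In edgeR 3 of them had an unadjusted p under 0.05, against 20.2% of all tested genes. These were nub and pnr, lower in M1BP RNAi, and rn, which was higher. The sums of the 12 markers overlapped between the genotypes, but shg, ed, rn and ap carried most of them, so they say little of the other markers. Sums of neuron and glia markers also overlapped, at 28 to 32.8 CPM in M1BP RNAi and 31.4 to 33.6 CPM in WT. Those of fat body markers did too, at 0.387 to 1.56 CPM in M1BP RNAi and 0.663 to 1.04 CPM in WT. Haltere and leg disc markers summed to 2.59 to 5.75 CPM in M1BP RNAi and 2.93 to 3.30 CPM in WT.

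Genes with the most similar pattern over the 6 libraries were found for each fitted gene by Euclidean distance between log2 CPM values centred on their mean. For tio they were alpha-Man-Ic (distance 0.413), dpn (0.572) and asRNA:CR44275 (0.582), while tio itself lay 2.15 from a flat profile. The exons of dpn and asRNA:CR44275 overlap on opposite strands, so their counts are not taken as separate. dpn, a bHLH repressor of neural precursors, had 351, 258 and 239 counts in M1BP RNAi, against 1017, 665 and 763 in WT. alpha-Man-Ic had 47, 30 and 28 counts in M1BP RNAi, against 134, 82 and 122 in WT. Both genes were picked for a pattern like that of tio, so their lower counts in M1BP RNAi restate that choice.

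For tsh the closest genes were sgg (distance 0.025), Mcr (0.036) and Antp (0.043), and for Antp they were tsh (0.043), Mcr (0.045) and sgg (0.054). tsh and Antp were therefore among the 3 closest genes of each other, at a distance that was small beside the 0.354 and 0.348 that separate them from a flat profile. Pearson's r between tsh and Antp was 0.993 over 6 libraries, which share WT replicate 2 as the lowest WT library. The closest genes of hth were Fas2 (0.041), CG9890 (0.047) and Doa (0.053), and those of exd were CG6693 (0.038), mip40 (0.039) and nmd (0.050). For Scr the closest were ldd (1.55), tnc (1.92) and TTLL3B (1.96), and for Abd-B they were cac (0.854), Acsf3 (1.03) and CG46335 (1.11), so no gene came as near to these as to the high set.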

How the data were processed

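The 3 M1BP RNAi and 3 WT libraries were grouped by their titles. The authors deposited raw counts per gene, in which reads of amplified cDNA were summed over exons in dm6. The submitters' processing notes name bcl2fastq 2.17.1.14, Subread 2.0.3, featureCounts and DESeq2 1.3.0. The aligner and the use of strand are not given in the sources used here, nor whether reads in shared exons count for both genes. A second deposited table holds the authors' own fold changes and p-values and was used for symbols alone. Of 17494 genes, 17358 are in the reference annotation, 17232 of them with the same start and end.

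Counts were tested with edgeR 4.0.16 in R 4.3.3 (filterByExpr with a minimum of 10 counts, TMM, genotype as the single term, glmQLFTest, Benjamini-Hochberg over 10306 genes). TMM factors lay between 0.988 and 1.007. RPKM used exon lengths and TMM library sizes. The procedure was tested on simulated data. The alternatives were DESeq2 1.42.0, RLE factors, no filter, a replicate block, other thresholds and windows, and each library left out.

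The 9 genes, the lists and the tests were chosen with earlier results of these data known. The naming rule covered the 9 genes, M1BP, list genes and neighbours within 100 kb at an adjusted p of at most 0.05, the nearest tested neighbours of tsh and tio, genes sharing exons with the 9, and for each fitted gene the 3 closest profiles among genes with a mean of at least 50 counts. Lists came from general knowledge. The methods describe triplicate RNA preparations without saying that they come from separate crosses, so p-values measure the spread between these preparations. Each pair of replicates differed beyond sampling noise (chi-square over its degrees of freedom 10.7 to 51.7). Floors cover counting error only, since amplified reads are not independent molecules.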

Additional observations from a re-analysis of the deposited data

How the results depend on the processing

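The fold changes of the 7 fitted genes and the levels of all 9 moved by no more than the spread between replicates in each of 71 and 72 alternatives. For the fold changes of Scr and Abd-B that spread was 1.71 and 0.91, so the comparison says little for them. With 1 library left out, Scr went from -1.0 to as little as -0.0047 and Abd-B from 1.08 to as little as 0.24. The number of genes past the threshold of the study, 49 in edgeR, was 174 with the DESeq2 Wald test, 99 without the filter, 422 at an adjusted p of 0.05 without the fold condition and 17 to 31 with 1 library left out. Among the 9 genes the count of 0 became 1 with the DESeq2 Wald test and without the filter, and was 0 to 1 with 1 library left out. The neighbours of tsh and tio, 3 called, were 6 with DESeq2 and 1 within 50 kb. Those of the other genes, 1 called, were 4 with DESeq2, 9 within 200 kb and 1 to 3 with 1 library left out. DESeq2 called 1 other Hox complex gene, 1 trithorax gene and 3 Hox targets, where edgeR called 0. Leaving out 1 library gave 0 to 4 Polycomb genes, 0 to 2 trithorax genes and 0 to 1 Hox targets, and 1 Hox target passed without the filter. The share of tio in the pair, from raw counts, was 0.676% in M1BP RNAi and 1.94% in WT, and with lncRNA:CR33987 subtracted it was 1.38% in WT. The shifts of this share follow from leaving out the division by length and from the smaller count of tio. The cause of the other shifts was not tested.

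With the replicate number as a block, 19 genes passed the threshold of the study, and 0 of the 9. Around tsh and tio 2 genes were called in place of 3, since the adjusted p of nolo was 0.0661. The sources used here do not say whether libraries with the same number were prepared together. The deviations of libraries with the same number correlated at 0.031, -0.046 and -0.16, and those with different numbers at -0.085 to 0.12. These values show no sign of pairing but cannot exclude it.

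The depth left Ubx and abd-A untested, the value of Abd-B rests on few counts and that of Scr on replicates that differ widely. The search for Motif 1 in promoters was not run, since no promoter sequence was used here.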
